A study of Homo sapiens with 6 samples.

Results

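The genes described here build and run the actomyosin cytoskeleton: actins, myosin II, tropomyosins, calponins and transgelins, crosslinkers, actin-binding and severing proteins, nucleators, membrane linkers and the transcription factors that control many of them. They were chosen by name, as the 58 gene symbols of a fixed list, and each was found once in a deposited table of 61806 genes. Of the 58, 54 had a mean of at least 0.5 FPKM (fragments scaled to the exonic length of the gene and the total count of the library) over the libraries and were tested among 15870 genes. The 4 below this level were ACTG2, ACTC1, MYH10 and DIAPH3.

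The cells were U87-MG, a human glioblastoma line long kept in culture. RNA sequencing of total RNA gave 3 negative control (NC) libraries and 3 libraries labelled GRIK1 siRNA, whose genotype label is GRIK1 knockdown, and the latter are called the siRNA-labelled libraries. GRIK1 encodes a kainate-type glutamate receptor subunit, and the study used the libraries to look for genes downstream of it. The labels name an siRNA and the series' own description an shRNA, and no label says whether the numbers 1, 2 and 3 stand for replicates or for different siRNA sequences, nor whether the libraries came from separate cultures. P-values therefore measure only the spread between these libraries, which may be technical. The line stands for 1 tumour and was grown without the cells that surround a tumour.

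Total counts ran from 11099909 to 14006968 per library. The label check failed to show a lower target: GRIK1 had 18, 9 and 8 counts in NC libraries 1, 2 and 3 and 15, 20 and 20 counts in the siRNA-labelled libraries (exact permutation test, two-sided, on log2(FPKM + 1), p = 0.4, with 0.1 the smallest p that 3 against 3 can give). The groups are therefore called by their labels throughout. NC library 3 stood apart from the other 5. Ribosomal protein genes took 8.45% of its counts and between 4.35% and 4.99% of the others, its quality weight in limma voom was 0.0498 against 1.02 to 2.60, and the common dispersion over all genes went from 0.0391 with it to 0.00298 without it. Fold changes of the named genes are therefore given from a fit of all 6 libraries and from a fit without NC library 3. The vimentin gene VIM (825 to 1076 FPKM) and CD44 (50.8 to 71.6 FPKM) were high, while the glial markers GFAP, S100B and SOX2 were at most 0.28, 0.04 and 0.12 FPKM in any library. The neural stem or glial markers OLIG2 and NES were low but present, at 0.41 to 0.83 and 0.21 to 0.69 FPKM. MYOCD, MYOD1, MYH7 and CD3E, which mark smooth muscle, skeletal muscle, heart and T cells, were listed at 0 in all 6. Of the other immune markers, CD68 was at 2.11 to 4.06 FPKM and PTPRC at most 0.03 FPKM. Of the epithelial markers, EPCAM was at 0.91 to 2.09 FPKM, and CDH1 and KRT19 were at most 0.13 and 0.58 FPKM.

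Actin monomers assemble into filaments, and myosin II, a motor of heavy chains, essential light chains and regulatory light chains, pulls filaments of opposite orientation past each other. Tropomyosins coat the filaments and decide where myosin can act, crosslinkers bundle them, and cofilin, gelsolin and profilin recycle the subunits. In glioma cells this machinery drives spreading, migration and the squeezing of the cell body through tissue. Many of its genes are switched on by SRF, the serum response factor, with its coactivators MRTFA and MRTFB, which are held in the cytoplasm by free actin monomers.

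SRF binds the CArG box, a run of A and T bases between a pair of Cs and a pair of Gs. A match on either strand is a match on the other, though the bases of a given box can differ between them. The promoter windows of RefSeq (GRCh38.p14, 250 bases before to 50 after a transcript start) held 94 windows of 50 of the 58 genes, and 9 of those 94 windows (9.57%) had a CArG box, against 454 of all 35116 windows (1.29%). No other motif was searched. The 8 genes without a window were ACTB, TAGLN, MYL9, FSCN1, PFN2, ARPC1B, CTTN and WASF2. The matches of the 7 tested genes that carried a box are printed, 30 bases each on the strand of the gene and with the box in capitals, because these genes can be read beside their fold changes, SRF itself among them. The first base of the box lies between 10 and 173 bases before the transcript start. The second SRF box partly shares its printed bases with the first.
SRF, first box, chr6:43171229-43171258, plus strand: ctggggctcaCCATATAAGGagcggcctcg
SRF, second box, chr6:43171249-43171278, plus strand: agcggcctcgCCATAAAAGGaaacattgta
ACTG1, chr17:81512874-81512903, minus strand: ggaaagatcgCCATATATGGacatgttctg
CNN2, chr19:1026509-1026538, plus strand: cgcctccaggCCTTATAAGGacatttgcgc
TPM4, chr19:16067355-16067384, plus strand: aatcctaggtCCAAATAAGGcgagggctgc
FLNA, chrX:154374709-154374738, minus strand: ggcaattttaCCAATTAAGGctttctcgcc
ACTN1, chr14:68977718-68977747, minus strand: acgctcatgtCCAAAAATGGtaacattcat
MYLK, chr3:123620623-123620652, minus strand: ataaaccatcCCTTTTATGGgagttgaagc
The MYLK window lies near the 3′ end of the gene, at the start of a short transcript, and not at the start of the full-length kinase. ACTG2, with 2 boxes, and ACTC1 were the other 2 genes with a match and were too low to be tested. A match is a sequence only, and which start these cells used was not measured.

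The 58 genes spanned a wide range of expression. ACTG1, ACTB and PFN1 had the highest means, at 655, 592 and 408 FPKM over the 6 libraries, followed by MYL12B and TAGLN2 at 283 and 195 FPKM, whereas ACTC1 was at 0.0333 FPKM. Together the 58 genes took 2.07%, 2.03% and 1.81% of all counts in NC and 1.95%, 1.89% and 1.88% in the siRNA-labelled libraries.

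**Figure D1:**
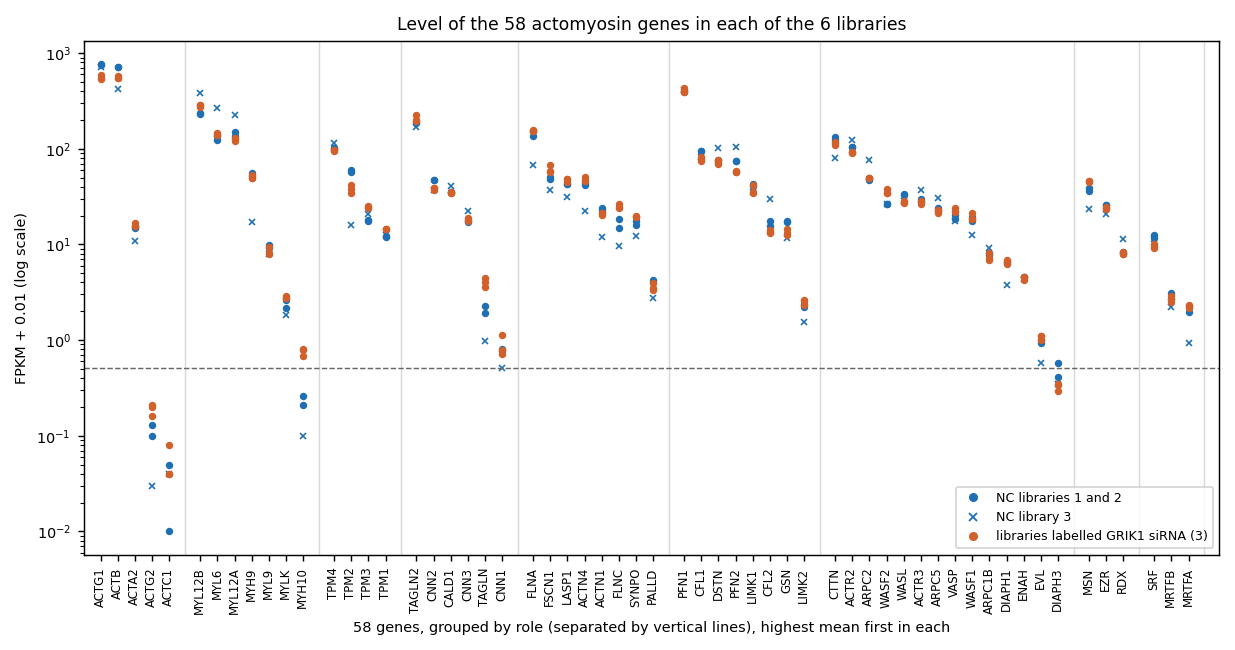
Level of each of the 58 genes in each library, as FPKM + 0.01 on a log axis, grouped by role; blue points are NC libraries 1 and 2, blue crosses NC library 3, orange points the 3 libraries labelled GRIK1 siRNA, and the dashed line the mean of 0.5 FPKM needed for the test. Means over the 6 libraries run from 0.0333 FPKM (ACTC1) to 655 FPKM (ACTG1). The crosses of MYH9, TPM2 and FLNA lie below, those of MYL6 and CFL2 above, all other libraries.

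The comparison of the siRNA-labelled libraries with NC asks whether the machinery differs between these groups. With all 6 libraries, 0 of the 54 tested genes passed an adjusted p under 0.05 in edgeR's quasi-likelihood test with Benjamini-Hochberg adjustment, where 3.09% of all tested genes did. The lowest was TAGLN (edgeR adjusted p = 0.0563). At an unadjusted p under 0.05 it was 13 of 54 (24.1%), beside 25.1% of all genes, and in 25 of 54 (46.3%) the scaled counts of the groups did not overlap, beside 38.5% of all genes. DESeq2 called 5 of the 54 (9.26%) at the same threshold, beside 11.4% of all genes to which it gave an adjusted p, and limma voom, which gave NC library 3 little weight, called 28 of 54 (51.9%), beside 39.9% of all genes. Most differences were small: 53 of the 54 were within 2-fold, TAGLN at 2.26-fold being the exception. The median log2 fold change was -0.10, against -0.02 over all genes.

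Without NC library 3, 28 of the 54 genes (51.9%) passed the same edgeR test, beside 35.2% of all genes. 12 rose (22.2%, beside 16.9% of all genes) and 16 fell (29.6%, beside 18.3%). In this fit all 54 lay within 2-fold, 26 of the 28 under 1.5-fold, and the median log2 fold change was -0.04, against 0.01 over all genes. Regardless of sign the median was 0.19 for the 54 and 0.26 for all genes, so the higher share of calls did not go with larger changes. The share called also depends on how many reads a gene has, and in no fit were all genes matched to the 54 for this. Of the 28, 26 had the same direction with all 6 libraries, and MYL12B and ACTN1 turned. The words "rose" and "fell" stand here for a pass in the fit without NC library 3, since none of the 54 genes passed with it in the filtered edgeR fit. Counts of rises and falls by role, given below, are to be read beside these shares of all genes. The roles hold few genes and were not tested as sets.

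**Figure D2:**
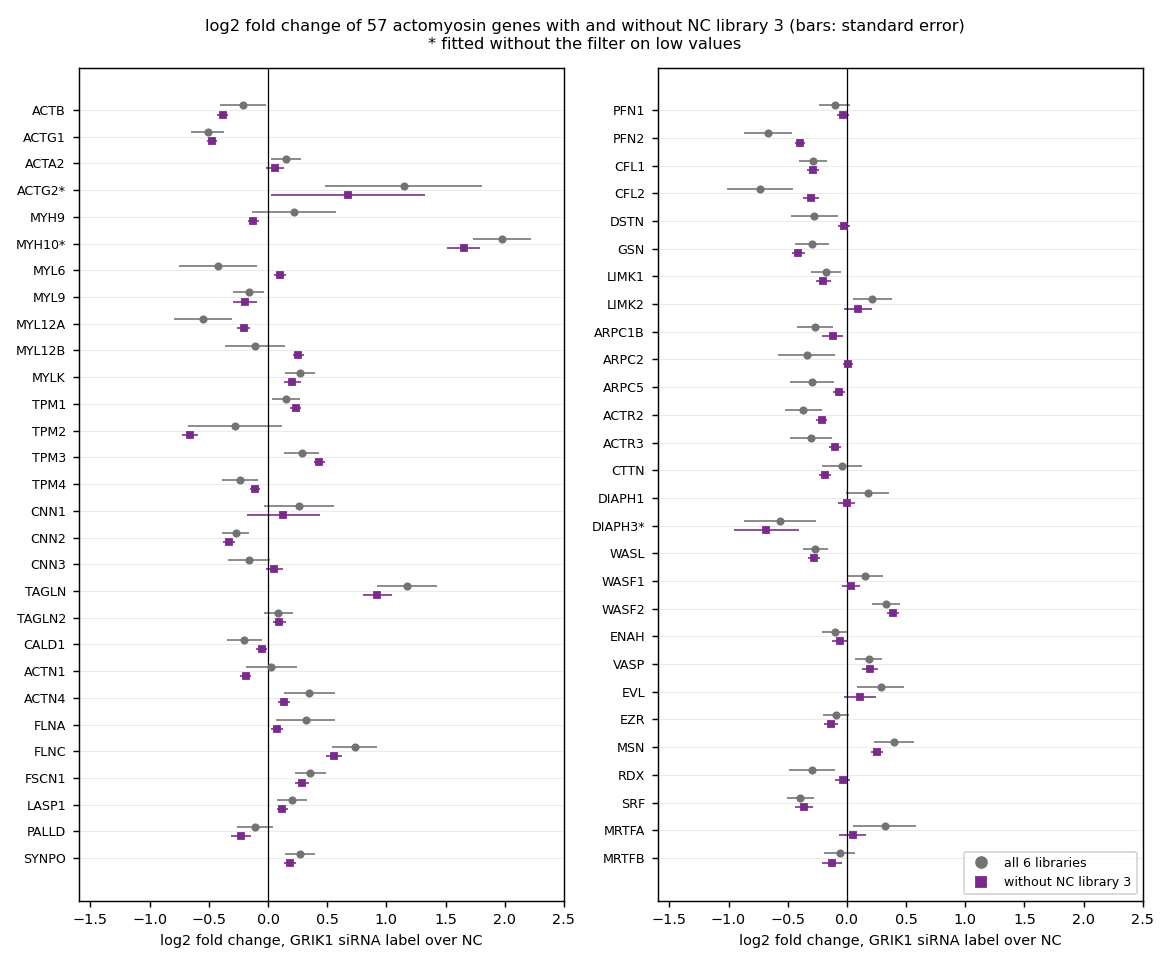
log2 fold change (libraries labelled GRIK1 siRNA over NC, horizontal axis) of 57 of the genes, with all 6 libraries (grey circles) and without NC library 3 (purple squares); bars are standard errors, and genes with an asterisk were fitted without the filter on low values. ACTC1, with at most 2 counts in any library, is not drawn. MYH10 and TAGLN lie farthest to the right, and the standard errors are shorter without NC library 3, with medians of 0.15 and 0.05.

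Of the actins, the 2 cytoplasmic ones that form most filaments in a non-muscle cell fell, and the smooth muscle actin ACTA2 did not pass. ACTG1, gamma-actin, was at 768, 759 and 723 FPKM in NC libraries 1, 2 and 3 and at 589, 548 and 542 FPKM in the siRNA-labelled libraries 1, 2 and 3. Every NC library, the third included, was above every library of the other group, and the log2 fold change was -0.51 (SE 0.14, edgeR adjusted p = 0.0900) with all 6, against -0.47 (SE 0.05, edgeR adjusted p = 5.23e-07) without NC library 3. ACTB, beta-actin, was at 724, 719 and 421 FPKM in NC and 584, 550.1 and 555 FPKM in the other group. Only NC library 3 was below the siRNA-labelled libraries, so the log2 fold change moved from -0.21 (SE 0.20, edgeR adjusted p = 0.514) to -0.38 (SE 0.04, edgeR adjusted p = 3.15e-06) without it. ACTB shares 10.3% of its 50-base stretches with other annotated genes, mostly actin-like copies, and ACTG1 3.58%, so both counts could hold reads of such copies.

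ACTA2, the actin of smooth muscle and myofibroblasts, was at 14.8, 15.3 and 10.8 FPKM in NC and 15.5, 16.7 and 15.7 FPKM in the other group, ranges that lay close without overlap on this scale and overlapped in scaled counts. The log2 fold change was 0.15 (SE 0.13, edgeR adjusted p = 0.483) with all 6 and 0.06 (SE 0.08, edgeR adjusted p = 0.592) without NC library 3. It overlaps FAS and STAMBPL1 on the other strand, and whether counting used strand is not given in the sources used here. The muscle actins ACTG2 and ACTC1 were close to absent. ACTG2 had 5, 4 and 1 counts in NC and 9, 7 and 10 counts in the other group, and ACTC1 had 0, 1 and 1 and then 2, 1 and 1. Within the summed actin level, ACTA2 took between 0.931% and 1.03% in NC and between 1.3% and 1.5% in the siRNA-labelled libraries.

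The motor itself showed the largest fitted fold change of the 58 genes, in its minor heavy chain. MYH10 (ENSG00000133026), the heavy chain of non-muscle myosin IIB, is at chr17:8474207-8631376 on the minus strand (GRCh38). It had 92, 73 and 39 counts in NC and 312, 327 and 288 counts in the siRNA-labelled libraries. Those are 0.25, 0.20 and 0.09 and 0.77, 0.79 and 0.67 FPKM, low because the deposited exonic size of the gene is 32700 bases, and this kept it under the filter. Each siRNA-labelled library was above each NC library by a wide margin. Fitted without the filter, over 34080 genes, the log2 fold change was 1.98 (SE 0.25, edgeR adjusted p = 4.36e-05), a fold of 3.93, and without NC library 3 as well it was 1.65 (SE 0.14, edgeR adjusted p = 8.4e-22), a fold of 3.14. The call with all 6 libraries was lost without the siRNA-labelled library 3 (edgeR adjusted p = 0.0675). In that unfiltered fit 5 of the 58 genes (8.62%) passed, MYH10, TAGLN, FLNC, PFN2 and CFL2, beside 4.12% of all genes, and 28 of 58 passed without NC library 3, beside 17% of all genes. MYH10 is described at length because its values stood out, and not by the rule for named genes.

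MYH9, the heavy chain of non-muscle myosin IIA and the main one in these cells, was at 56.4, 52.5 and 17.3 FPKM in NC and at 52.98, 50.1 and 49.6 FPKM in the other group. NC library 3 alone was far below the rest, and the log2 fold change turned from 0.22 to -0.12 without it (SE 0.05, edgeR adjusted p = 0.0653). Per length, MYH10 made up 0.441%, 0.380% and 0.518% of the summed level of both heavy chains in NC and 1.43%, 1.55% and 1.33% in the siRNA-labelled libraries. This ratio compares the genes within each library, and NC library 3 lay with the other NC libraries. The overlapping gene on the other strand, NDEL1, had a log2 fold change of 0.06 with all 6 libraries.

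The regulatory light chains, whose phosphorylation by kinases such as MYLK switches the motor on, moved in opposite directions without NC library 3. MYL12B was at 229, 237 and 381 FPKM in NC and 276, 286 and 287 FPKM in the other group. It rose by a log2 fold change of 0.25 (SE 0.05, edgeR adjusted p = 0.000457), whereas with all 6 libraries the value was -0.11 (edgeR adjusted p = 0.806), since NC library 3 was the highest of all. Its neighbour and near copy MYL12A fell by 0.20 on the log2 scale (SE 0.05, edgeR adjusted p = 0.00666) without NC library 3, and with all 6 libraries the value was -0.55 (SE 0.24, edgeR adjusted p = 0.212). The 2 genes share 50-base stretches with each other and with copies, 11.4% of MYL12A and 9.42% of MYL12B, so reads could be split between them. MYL12A took 36.2% to 37.7% of the summed level of the 3 regulatory light chains in every NC library and 29.7% to 30.4% in the other group, NC library 3 again lying with its group at 36.7%. MYL9, the smooth muscle type regulatory light chain, was at 9.11, 9.86 and 7.88 FPKM in NC and 9.37, 8.13 and 7.87 FPKM in the other group, and these overlapped (log2 fold change -0.16, edgeR adjusted p = 0.439, and without NC library 3 -0.19, edgeR adjusted p = 0.165). The kinase MYLK rose by a log2 fold change of 0.20 (SE 0.07, edgeR adjusted p = 0.0326), with 0.27 (edgeR adjusted p = 0.227) in all 6. The essential light chain MYL6 did not pass, and its value turned from -0.43 (edgeR adjusted p = 0.436) with all 6 libraries to 0.10 (edgeR adjusted p = 0.146) without NC library 3.

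**Figure D3:**
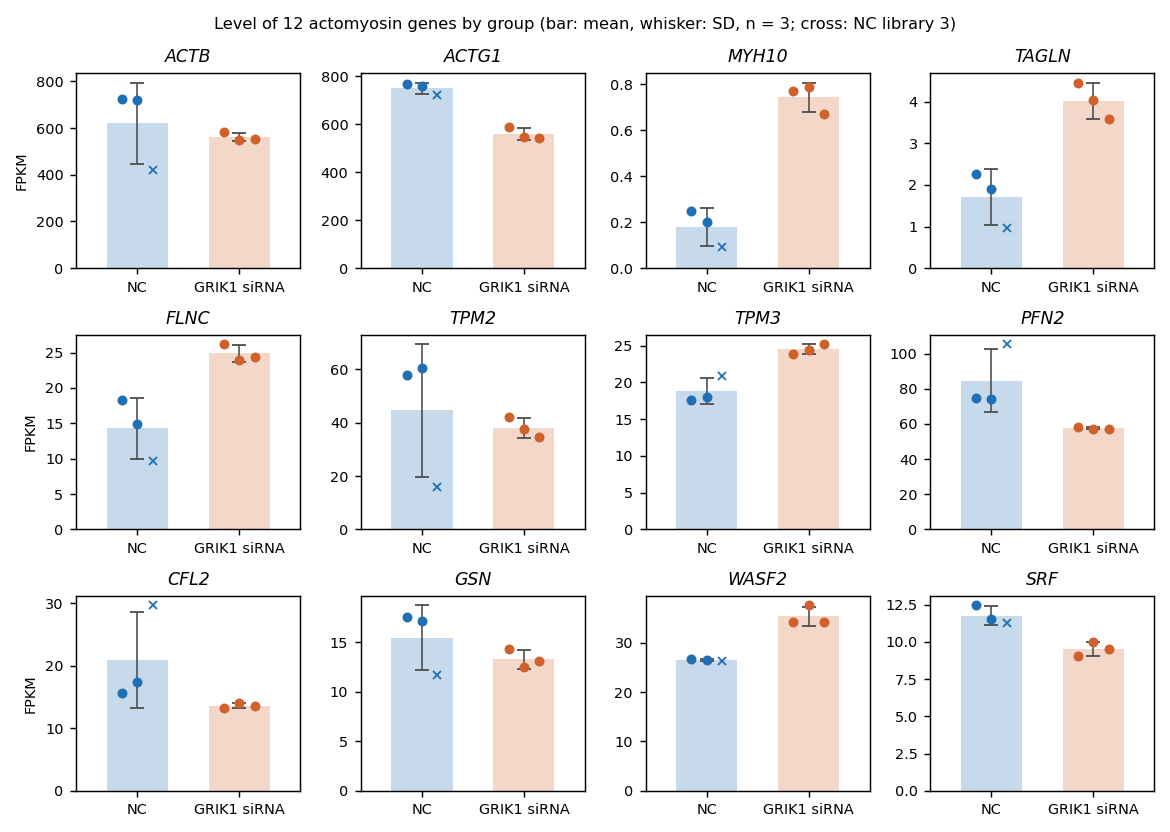
FPKM (vertical axis, from 0) of 12 of the genes by group; points are single libraries, crosses NC library 3, bars the mean and whiskers the SD (n = 3). MYH10, TAGLN, FLNC, TPM3 and WASF2 have every siRNA-labelled library above every NC library, and ACTG1, PFN2, CFL2 and SRF have every one below. In ACTB, TPM2 and GSN the cross lies below both groups' other points.

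Of the 4 tropomyosins, the coat proteins of the filament, TPM1 and TPM3 rose, TPM2 fell and TPM4 did not pass. TPM3 was at 17.7, 18.03 and 20.8 FPKM in NC and 23.9, 24.4 and 25.2 FPKM in the other group. All libraries labelled GRIK1 siRNA were above NC on this scale, with log2 fold changes of 0.28 (SE 0.15, edgeR adjusted p = 0.275) with all 6 and 0.43 (SE 0.05, edgeR adjusted p = 2.04e-06) without NC library 3. TPM1 was at 12.4, 11.9 and 12.6 FPKM and then 14.6, 14.6 and 14.5 FPKM, ranges that were separate in FPKM, while in scaled counts NC library 3 reached into the other group for both genes. The log2 fold change of TPM1 was 0.15 (SE 0.12, edgeR adjusted p = 0.447) with all 6 and 0.23 (SE 0.05, edgeR adjusted p = 0.000769) without NC library 3. TPM1 shares 42.1% of its 50-base stretches with the antisense gene TPM1-AS and TPM4 36.2% with 3 other annotated genes, so their counts are uncertain. TPM2 was at 57.7, 60.4 and 16.04 FPKM in NC and 42.1, 37.6 and 34.5 FPKM in the other group. NC library 3 had less than any other library, and the log2 fold change was -0.28 (SE 0.40, edgeR adjusted p = 0.676) with it and -0.66 (SE 0.07, edgeR adjusted p = 5.86e-07) without, the deepest fall of the 54 in that fit. TPM4, the most abundant tropomyosin, had log2 fold changes of -0.24 and -0.11 (edgeR adjusted p = 0.357 and 0.0676).

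Among the calponins, transgelins and caldesmon, which bind the sides of filaments and restrain myosin, TAGLN rose, CNN2 fell and 4 did not pass. TAGLN, transgelin or SM22, an early smooth muscle marker, was at 2.26, 1.91 and 0.96 FPKM in NC and 4.45, 4.03 and 3.57 FPKM in the siRNA-labelled libraries. The lowest of the latter was above the highest NC library, and the log2 fold change was 1.17 (SE 0.26, edgeR adjusted p = 0.0563), a fold of 2.26, with all 6 libraries and 0.92 (SE 0.12, edgeR adjusted p = 1.57e-05), a fold of 1.89, without NC library 3. TAGLN shares 18.6% of its 50-base stretches with PCSK7, which overlaps it on the other strand. It was the minor transgelin, since TAGLN2 made up between 98.0% and 99.4% of the summed level of both in every library. The summed level of 5 smooth muscle markers outside the list was 1.56 to 4.57 FPKM in NC and 6.03 to 6.93 FPKM in the other group, nearly all of it SMTN. MYOCD, their master coactivator, was at 0, and MYH11, DES and LMOD1 did not exceed 0.18, 0.06 and 0.27 FPKM.

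CNN2, calponin 2, was at 47.2, 47.5 and 36.8 FPKM in NC and 39.1, 39.2 and 36.8 FPKM in the other group. NC library 3 was level with the lowest library of the other group on this scale, though the scaled counts of the groups did not overlap, and the log2 fold changes were -0.27 (SE 0.11, edgeR adjusted p = 0.191) and, without it, -0.33 (SE 0.05, edgeR adjusted p = 6.15e-05). CNN1, the smooth muscle calponin, was near the filter, at 0.76, 0.79 and 0.50 FPKM in NC and 0.77, 0.70 and 1.12 FPKM in the other group, and the ranges overlapped (log2 fold change 0.26, edgeR adjusted p = 0.599, and without NC library 3 0.13, edgeR adjusted p = 0.789). CALD1, caldesmon, was at 35.6, 35.2 and 41.1 FPKM and 34.95, 34.4 and 34.8 FPKM and did not pass either (log2 fold change -0.20, edgeR adjusted p = 0.418, and without NC library 3 -0.05, edgeR adjusted p = 0.381). CNN3, which turned from -0.16 to 0.05 without NC library 3, and TAGLN2, at 0.09 and 0.10, did not pass.

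The crosslinkers and scaffolds held more rises than falls: of 8, ACTN4, FLNC, FSCN1 and SYNPO rose, ACTN1 and PALLD fell, and FLNA and LASP1 did not pass. Of all tested genes, 16.9% rose and 18.3% fell. FLNC, filamin C, which joins filaments into networks and is known from muscle, was at 18.3, 14.9 and 9.68 FPKM in NC and 26.2, 24.01 and 24.4 FPKM in the other group. The ranges were apart, with log2 fold changes of 0.73 (SE 0.19, edgeR adjusted p = 0.0779) with all 6 and 0.56 (SE 0.07, edgeR adjusted p = 4.84e-06) without NC library 3. FSCN1, fascin, the bundler of filopodia, was at 50.1, 48.5 and 36.8 FPKM and 67.1, 58.8 and 57.5 FPKM. Its groups were apart too, and it rose by a log2 fold change of 0.28 (SE 0.06, edgeR adjusted p = 0.00115), with 0.36 in all 6, where it did not pass. ACTN1, alpha-actinin 1 of stress fibres, was at 24.1, 22.98 and 12.02 FPKM in NC and 21.3, 21.4 and 20.4 FPKM in the other group. It fell by 0.19 on the log2 scale (SE 0.05, edgeR adjusted p = 0.00396) without NC library 3, and the value with all 6 was 0.03 (edgeR adjusted p = 0.943). The rises of ACTN4 (0.14) and SYNPO (0.19) and the fall of PALLD (-0.23, edgeR adjusted p = 0.0495) were at most 1.17-fold without NC library 3. With all 6 libraries the log2 fold changes were 0.35, 0.27 and -0.11 (edgeR adjusted p = 0.335, 0.222 and 0.670).

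Within families, the shares of some genes in NC library 3 lay with its own group. ACTN1 made up 35.1% to 35.4% of the summed level of both alpha-actinins in all 3 NC libraries and 29.4% to 31.7% in the siRNA-labelled libraries. FLNC made up 9.91% to 12.5% of the filamins in NC and 13.5% to 14.2% in the other group. Among ezrin, moesin and radixin, EZR took 35.6% to 37.6% in NC and 30.6% to 31.5% in the other group, although NC library 3 differed from the other 5 libraries in the remaining members, with MSN at 42% against 51.3% to 59% and RDX at 20.3% against 10.2% to 11.7%. These shares come from FPKM within a library and do not depend on the scaling between libraries, and no p is given for them, because 3 libraries against 3 cannot reach 0.05 in an exact permutation test. Among others, TPM1, TPM3, CFL2 and PFN2 also had shares that did not overlap between the groups, TPM3 at 9.27% to 12.7% in NC and 13.7% to 14.8% in the other group. So did ACTG1, at 50.8% to 62.6% of the actins in NC and 48.7% to 49.6% in the other group. ACTB took 36.4% to 48.2% in NC and 49.1% to 49.8% in the other group, a larger share although its level fell. The shares of TPM2, CNN2 and CFL1 in NC library 3 were 9.82%, 61.5% and 38.9%, outside the range of the other 5 libraries in each case.

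**Figure D4:**
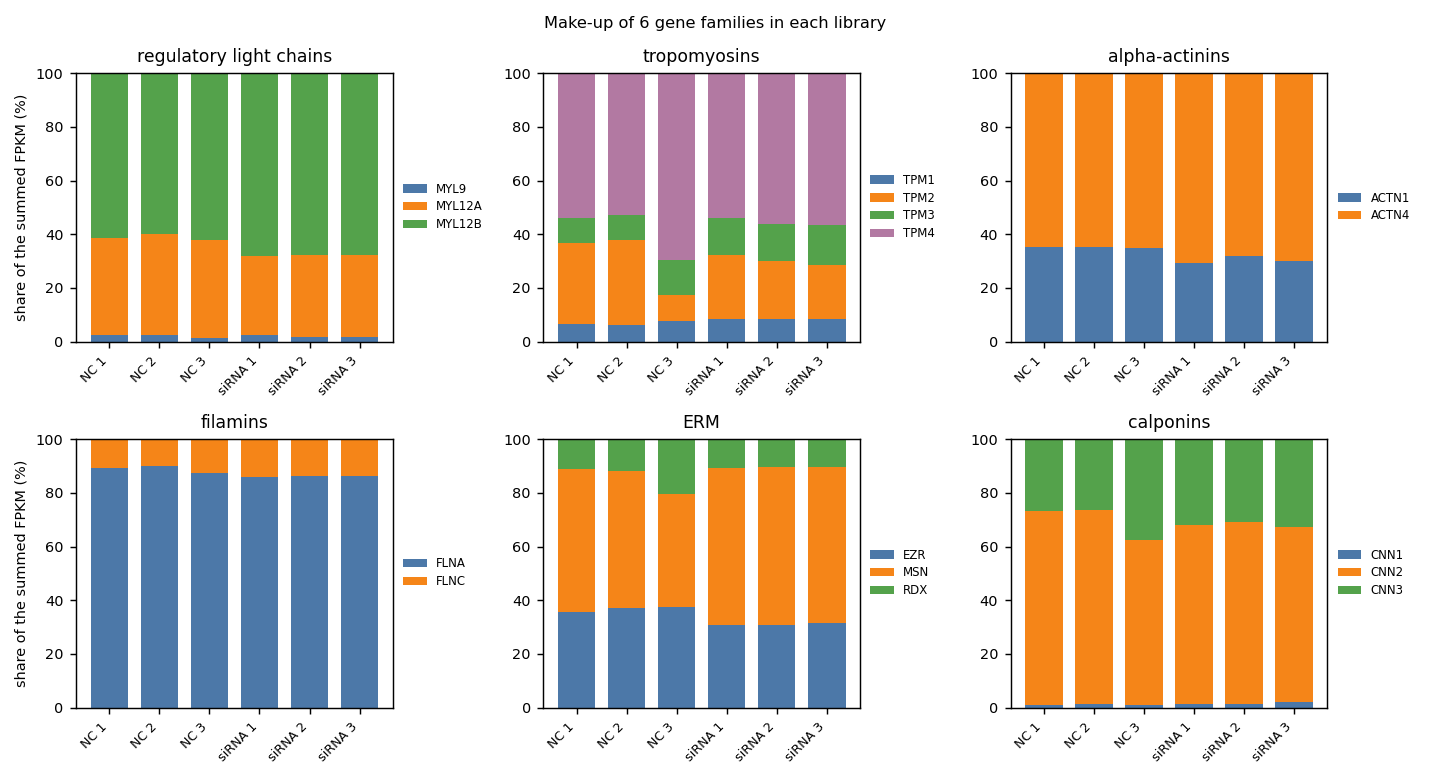
Make-up of 6 families in each library, as each gene's share (%) of the family's summed FPKM; ERM stands for ezrin, radixin and moesin. MYL12A (36.2% to 37.7% in NC), ACTN1 (35.1% to 35.4%) and EZR (35.6% to 37.6%) take a smaller share in all 3 libraries labelled GRIK1 siRNA, while NC 3 stands apart in TPM2, CNN2, RDX and MSN.

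The monomer binding and severing group held 8 genes, with the kinases LIMK1 and LIMK2, which act on cofilin, counted in it. Of the 8, 5 fell, LIMK1 among them, and 0 rose. The median log2 fold change of the 8 was -0.24 without NC library 3 and -0.28 with it. In the fit without NC library 3, 29.6% of the 54 genes and 18.3% of all tested genes fell. PFN2, a profilin that feeds monomers to growing ends, was at 74.6, 73.96 and 106 FPKM in NC and 58.1, 56.9 and 57.4 FPKM in the other group. NC library 3 was the highest, all NC libraries were above the other group, and the log2 fold changes were -0.66 (SE 0.20, edgeR adjusted p = 0.110) and, without it, -0.40 (SE 0.04, edgeR adjusted p = 2.08e-06). The cofilins CFL1 and CFL2 cut and disassemble old filaments. CFL1 was at 94.5, 93.7 and 82.98 FPKM in NC and 82.8, 78 and 75.1 FPKM in the other group. Its log2 fold changes were -0.29 (edgeR adjusted p = 0.187) with and -0.28 (edgeR adjusted p = 0.000236) without NC library 3. In FPKM NC library 3 lay just above the other group, whereas in scaled counts it was the highest of all libraries. CFL2, the muscle-type cofilin, was at 15.6, 17.4 and 29.7 FPKM and 13.2, 14.1 and 13.6 FPKM. NC library 3 set most of the distance: the log2 fold change was -0.73 (SE 0.28, edgeR adjusted p = 0.166) with it and -0.30 (SE 0.07, edgeR adjusted p = 0.00166) without.

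GSN, gelsolin, which severs and caps filaments in the presence of calcium, was at 17.5, 17.2 and 11.7 FPKM in NC and 14.3, 12.5 and 13.1 FPKM in the other group. It fell by 0.41 on the log2 scale without NC library 3 (SE 0.06, edgeR adjusted p = 2.11e-05), with -0.29 (edgeR adjusted p = 0.249) in all 6. In FPKM NC library 3 was below every other library, and in scaled counts it was among the siRNA-labelled libraries. LIMK1, the kinase that inactivates cofilin, fell by 0.20 (edgeR adjusted p = 0.0225), with -0.18 (edgeR adjusted p = 0.398) in all 6. PFN1, DSTN and LIMK2 did not pass in either fit, and PFN1, the third most abundant of the 58, lay between 393 and 434 FPKM in all 6 libraries.

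Nucleation and elongation of filaments involved 14 of the genes, of which 13 were tested, WASF2 and VASP rose, ACTR2, CTTN and WASL fell, and 8 did not pass. WASF2, the WAVE2 subunit that activates the Arp2/3 complex at the leading edge, was at 26.7, 26.5 and 26.3 FPKM in NC and 34.4, 37.7 and 34.3 FPKM in the other group. NC library 3 lay with the other NC libraries in FPKM, and in scaled counts it was above them but below the siRNA-labelled libraries. The log2 fold change was 0.33 (SE 0.12, edgeR adjusted p = 0.142) with NC library 3 and 0.39 (SE 0.05, edgeR adjusted p = 2.07e-05) without. WASL, N-WASP, another activator of the complex, was at 33.8, 32.6 and 28.5 FPKM in NC and 28.6, 27.5 and 27.4 FPKM in the other group. It fell by 0.28 on the log2 scale (SE 0.05, edgeR adjusted p = 0.000354) without NC library 3, with -0.27 in all 6. ACTR2, the ARP2 subunit, was at 104, 104 and 123 FPKM and 89.3, 93.1 and 91.8 FPKM, so that every NC library was higher (log2 fold change -0.37, edgeR adjusted p = 0.191, and without NC library 3 -0.21, edgeR adjusted p = 0.00154). The other subunits of the complex in the list, ACTR3, ARPC1B, ARPC2 and ARPC5, did not pass, with log2 fold changes between -0.34 and -0.27 with all 6 and between -0.12 and 0.01 without NC library 3, where ARPC2 turned. ARPC1B shares 72.3% of its 50-base stretches with another annotated gene, and its count is uncertain.

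VASP, which extends filament ends, rose by a log2 fold change of 0.19 (SE 0.07, edgeR adjusted p = 0.0331), with 0.18 in all 6 (edgeR adjusted p = 0.334), while its relatives ENAH (-0.10 and -0.06) and EVL (0.29 and 0.11) did not pass in either fit. CTTN, cortactin, which steadies branches, fell by 0.18 (SE 0.05, edgeR adjusted p = 0.00882), with -0.04 in all 6 (edgeR adjusted p = 0.891). The formin DIAPH1 and the WAVE subunit WASF1 did not pass in either fit, and the formin DIAPH3 was under the filter at 0.57, 0.40 and 0.34 FPKM in NC and 0.34, 0.33 and 0.28 FPKM in the other group.

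Of the 3 linkers between filaments and the membrane, MSN rose and EZR and RDX did not pass. MSN, moesin, was at 38.9, 36.1 and 23.4 FPKM in NC and 45.7, 44.8 and 45.8 FPKM in the other group. The groups were apart, and the log2 fold change was 0.40 (SE 0.17, edgeR adjusted p = 0.189) with all 6 and 0.25 (SE 0.05, edgeR adjusted p = 0.000583) without NC library 3.

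SRF, the transcription factor whose own promoter carries both boxes printed above, was at 12.5, 11.6 and 11.3 FPKM in NC and 9.06, 9.98 and 9.5 FPKM in the other group. All 3 NC libraries were higher, NC library 3 among them, and the log2 fold change was -0.39 (SE 0.11, edgeR adjusted p = 0.0979) with all 6 and -0.36 (SE 0.08, edgeR adjusted p = 0.00145) without NC library 3. Its coactivators did not pass in either fit. MRTFA was at 2.28, 1.96 and 0.92 FPKM in NC and 2.3, 2.24 and 2.15 FPKM in the other group, with only NC library 3 away from the rest (log2 fold change 0.32 with it and 0.05 without). MRTFB was at 3.09, 2.65 and 2.19 FPKM and 2.85, 2.49 and 2.68 FPKM, overlapping ranges (log2 fold change -0.06, edgeR adjusted p = 0.784, and without NC library 3 -0.13, edgeR adjusted p = 0.263).

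Of the 7 tested genes with a CArG box in a promoter window, ACTG1, CNN2, ACTN1 and SRF fell, MYLK rose, and TPM4 and FLNA did not pass. Their median log2 fold change was -0.24 with NC library 3 and -0.19 without it, beside -0.10 and -0.04 over the 54 genes. Of all tested genes, 18.3% fell and 16.9% rose in the fit without NC library 3. TAGLN and ACTB, known from textbooks as SRF targets, had no window to search. Nothing about SRF activity follows from these counts of letters.

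NC library 3 differed from its group by gene rather than by a common factor. Its scaled count was furthest below the mean of NC libraries 1 and 2 in TPM2 (-1.64 on the log2 scale) and MYH9 (-1.41) and furthest above in MYL6 (1.27) and CFL2 (1.09), and the median over the 54 genes was -0.01. The median size of this deviation, regardless of sign, was 0.42 for the 54 genes and 0.53 for all 15870. Of the 27 genes with the larger exonic sizes, 18 were lower in NC library 3, and of the 27 with the smaller, 10. The correlation of the deviation with exonic size was weak (Spearman's rank correlation -0.229 across the 54 genes, 0.0379 across all tested genes, where genes are not independent and share the same 3 libraries). What set this library apart was not tested.

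3 companion lists cover genes related to the 58. Of 22 tested genes of Arp2/3, capping and WAVE biology outside the 58, 0 passed with all libraries, and 3 rose and 7 fell without NC library 3. The 3 with the lowest adjusted p were twinfilin TWF1 (-0.38), the WAVE subunit BRK1 (-0.34) and coronin CORO1B (-0.49), which fell, and their values with all 6 libraries were -0.72, -0.68 and -0.49 (edgeR adjusted p = 0.128, 0.141 and 0.0893). The 3 that rose, named after their values were seen, were ACTR3B (0.41), NCKAP1 (0.15) and CAP1 (0.20), with 0.33, -0.07 and 0.03 in all 6. These counts stand beside the 3.09% and 35.2% of all genes that passed in the respective fits.

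Of 18 tested formins and myosins outside the 58, 2 passed with all 6 libraries, beside 3.09% of all genes. MYO10, the motor that carries cargo to filopodial tips, was at 5.88, 5.43 and 4.14 FPKM in NC and 9.86, 9.47 and 9.33 FPKM in the other group, a log2 fold change of 0.81 (SE 0.12, edgeR adjusted p = 0.0304). The formin DIAPH2 was at 3.96, 4.26 and 3.88 FPKM and 2.46, 2.54 and 2.68 FPKM, a log2 fold change of -0.74 (SE 0.12, edgeR adjusted p = 0.0306). Both groups were apart in both genes, NC library 3 included. Each call was lost when any 1 library other than NC library 3 was left out. Without NC library 3, 6 of the 18 rose and 3 fell, MYO5A, a vesicle motor, among the former (0.34, edgeR adjusted p = 1.77e-05, with 0.28 in all 6). Of all tested genes, 16.9% rose and 18.3% fell in that fit.

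The SRF target list outside the 58 leaned to lower values. Of 15 tested genes 0 passed with all 6 libraries, and 1 rose and 8 fell without NC library 3, with a median log2 fold change of -0.28. Of all tested genes, 3.09% passed with all 6 libraries. Without NC library 3, 16.9% of them rose and 18.3% fell, with a median of 0.01. CCN2, a secreted matrix protein also driven by YAP, was at 19.96, 20.3 and 9.25 FPKM in NC and 9.7, 7.9 and 8.29 FPKM in the other group, a log2 fold change of -0.997 (SE 0.26, edgeR adjusted p = 0.0782) with all 6 libraries and -1.25 (SE 0.10, edgeR adjusted p = 3.41e-08) without NC library 3. In FPKM NC library 3 lay within the lower group for this gene, whereas in scaled counts it lay above that group. CCN1, its relative, fell by 0.80 on the log2 scale and the LIM protein CSRP1 by 0.41, with -0.58 and -0.49 in all 6. The 1 gene that rose was SMTN (0.53, with 0.85 in all 6), chosen for mention after its value was seen. Of the 5 mesenchymal markers, COL1A1 and FN1 were higher in every siRNA-labelled library than in any NC library. The summed level of FN1, COL1A1, CD44, PDGFRB and THY1 was 91.3 to 247 FPKM in NC and 403 to 436 FPKM in the siRNA-labelled libraries, with COL1A1 at 26.9 to 106 FPKM in the former and 248 to 280.3 FPKM in the latter, and THY1 at most 0.01 FPKM in any library. CD44 went the other way outside NC library 3, at 69.1 and 71.6 FPKM in NC libraries 1 and 2 and 56.8 to 60.2 FPKM in the siRNA-labelled libraries, and PDGFRB lay at 1.97 to 4.99 and 5 to 5.6 FPKM. In bulk RNA a change in the mix of cells and a change of RNA per cell cannot be told apart, and the part of these markers in the differences above was not tested.

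**Figure D5:**
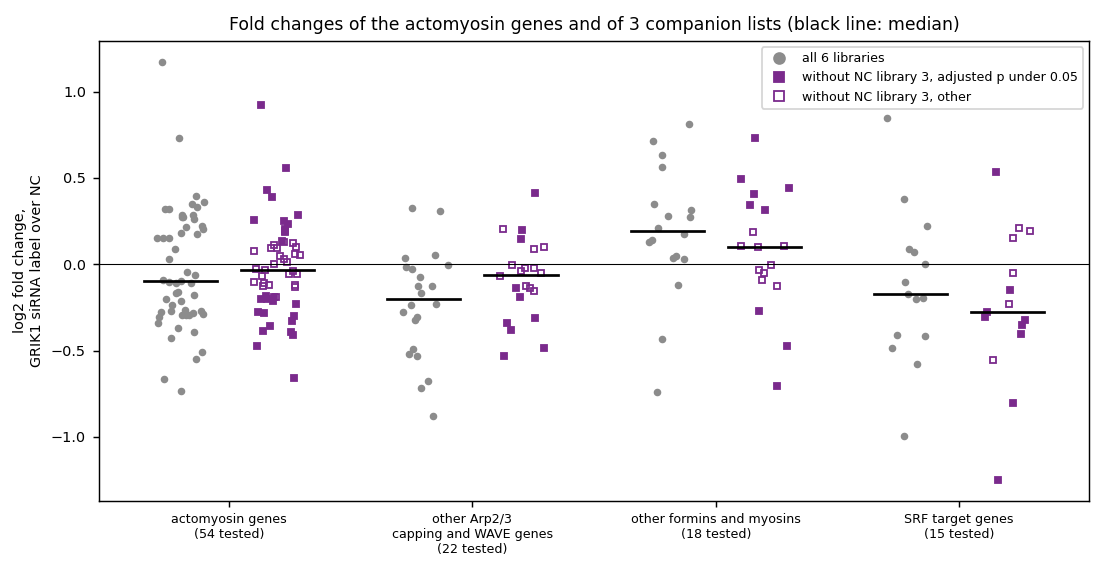
log2 fold changes (vertical axis, libraries labelled GRIK1 siRNA over NC) of the 54 tested actomyosin genes and of 3 companion lists; each point is a gene, grey with all 6 libraries, purple without NC library 3 and filled where the edgeR adjusted p was under 0.05, and black lines are medians. The SRF target list has its median at -0.17 with all 6 libraries and -0.28 without NC library 3, and TAGLN (1.17) is the highest actomyosin gene.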

How the data were processed

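The members and lists were chosen with earlier results of these data known, so a pattern already seen in them has no independent support here. The authors deposited whole-number read counts per gene, not normalized, and FPKM values that they computed from those counts and an exonic size per gene. This formula gave 100% of the FPKM values, so a long annotated exonic size lowers a gene's FPKM. Per the submitters' processing notes cutadapt 1.9.1, HISAT2 and HTSeq were used on GRCh38. The strand setting is not given in the sources used here.

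Groups came from the titles. Genes whose mean over the libraries reached 0.5 FPKM were tested with the quasi-likelihood test of edgeR 4.0.16 (R 4.3.3, TMM scaling, no block) over the whole table, with Benjamini-Hochberg adjustment and a call at an adjusted p under 0.05. The SE is the absolute log2 fold change divided by the square root of the F statistic. Non-overlap of groups was read from TMM-scaled counts. Alternatives were DESeq2 1.42.0, limma 3.58.1, other filters and scaling, the replicate block and leaving out each library. Fits that join no filter with leaving out a library were added after seeing the data. Only the edgeR test was run on simulated counts, with the same dispersion for every gene and no library that stood apart as NC library 3 did. The simulation therefore says nothing about how the calls depend on that library. Values in every library are given for the 20 members with the lowest adjusted p with all libraries or with 1 left out, for the actins, CNN1, TAGLN, MYL9, TPM1, TPM2 and CALD1, and for SRF, MRTFA and MRTFB, and at most 3 called genes are named per companion list. Of the companion lists set for this work, 1 is not reported here. Shared 50-base stretches were counted in GENCODE 29 transcripts. Total counts of 11099909 to 14006968 per library set the precision.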

Additional observations from a re-analysis of the deposited data

How the results depend on the processing

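None of the 54 tested members passed with all 6 libraries in the filtered edgeR fit. Each count of calls among the members therefore turns on the filter, on NC library 3 or on the method. Members called came to 5 with no filter (4.12% of all genes), 5 in DESeq2 (11.4% of all genes) and 28 in limma voom with sample quality weights (39.9% of all genes). Of these 28, 26 were also among the 28 called without NC library 3. Leaving out each library in turn gave 0 to 28 calls, and 0 in each case but NC library 3. With no filter as well, an alternative chosen after seeing the data, it gave 0 to 28: 7, 4 and 28 without NC libraries 1, 2 and 3, and 1, 2 and 0 without siRNA-labelled libraries 1, 2 and 3. The 28 without NC library 3 were not the same genes with and without the filter. MYLK, ACTN4 and VASP were called only with the filter, and MYH9, MYH10 and TPM4 only without it. Median-of-ratios scaling, a mean of at least 1 FPKM, a threshold of 1 on the absolute log2 fold change and the replicate block each gave 0. The main fit did not use the replicate numbers as pairs. The correlations of same-numbered libraries, each taken as its deviation from the group mean, were -0.07, 0.04 and -0.04. NC library 3 pulled the mean of its group, so these values cannot show whether the numbers pair the libraries.

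The median log2 fold change of the members was -0.063 under voom weights, between -0.11 and -0.036 when a library was left out, and between -0.14 and -0.062 when the filter was dropped too. Calls among Arp2/3, capping and WAVE genes were 2 with no filter, 2 in DESeq2, 9 under voom weights, 0 to 10 with a library left out and 11 with no filter and without NC library 3. Calls among other formins and myosins were 9 under voom weights, 0 with the replicate block, 0 at an absolute log2 fold change over 1, 0 to 9 with a library left out and 10 with no filter and without NC library 3. SRF target calls were 2 with no filter, 2 in DESeq2, 9 under voom weights, 0 to 9 with a library left out and 9 with no filter and without NC library 3.

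Directions turned under voom weights for MYH9 (-0.11), MYL6 (0.075), MYL12B (0.24), CNN3 (0.036), ACTN1 (-0.18) and DIAPH1 (-0.0045). Leaving out a library gave log2 fold changes of -0.12 to 0.47 for MYH9, -0.64 to 0.10 for MYL6, -0.27 to 0.25 for MYL12B, -0.26 to 0.052 for CNN3, -0.19 to 0.17 for ACTN1, -0.50 to 0.010 for ARPC2, -0.18 to 0.066 for CTTN, -0.0012 to 0.28 for DIAPH1 and -0.13 to 0.030 for MRTFB. The cause was not tested. No other member turned under any alternative run. GRIK1 was not lower in the siRNA-labelled libraries under any of its alternatives, with differences of 0.06 to 0.21 on log2(FPKM + 1) when a library was left out.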
